A study of Mus musculus with 8 samples.

Results

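The Slc30a genes encode the ZnT proteins, the family of transporters that carry zinc out of the cytosol, either across the plasma membrane or into vesicles and organelles. All 10 members with the symbols Slc30a1 to Slc30a10 were taken by symbol, without use of their values, from a count table of 55414 mouse gene identifiers. They were followed in Paneth cells of C57BL/6J mice that drank either Milli-Q water (4 mice) or the same water with 25 mM zinc sulfate (ZnSO4; 4 mice) for 7 days. The small intestine was dissociated, Paneth cells were collected by fluorescence-activated cell sorting, and stranded mRNA libraries were sequenced. Each of the 8 libraries thus stands for 1 animal. The p-values below, except those that use the replicate number, measure the spread between libraries. That spread can hold differences between animals and any factor shared by libraries of the same number. Both groups had the same strain background and no other allele or agent was named. Neither age nor sex of these animals was given in the sources used here.

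Paneth cells lie at the base of the small intestinal crypts and store antimicrobial peptides in large secretory granules that are rich in zinc. Free zinc in the cytosol is set by opposing steps. The Slc30a transporters export or sequester it, and the Slc39a (ZIP) transporters bring it into the cytosol. The metallothioneins, small cysteine-rich proteins, bind it. The transcription factor Mtf1 senses cytosolic zinc and activates genes that carry metal response elements, the metallothionein genes and Slc30a1 among them. Within the family, Slc30a1 is the plasma membrane exporter, Slc30a2, Slc30a3, Slc30a4 and Slc30a8 load vesicles and granules, Slc30a5, Slc30a6 and Slc30a7 serve the early secretory pathway, Slc30a9 is mitochondrial, and Slc30a10 exports manganese.

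The libraries held 20760764 to 24117111 counts. Levels are given as counts-per-million (CPM) after TMM scaling, which estimates one factor per library from the bulk of the genes. These factors ran from 0.764 to 1.23, and in both groups replicate 1 had the lowest and replicate 4 the highest. The 10 Paneth cell markers (Lyz1, Defa24, Mmp7 and others) took 43.9% to 54.2% of all counts with water and 42.0% to 54.6% with zinc. Goblet markers took 0.921% to 1.20% and 1.10% to 1.63%, and stem cell markers 0.339% to 0.707% and 0.351% to 0.386%. Tuft markers reached at most 0.0155%, enteroendocrine markers 0.0118% and enterocyte markers 0.0161%. Immune markers took 0.0121% to 0.0201% with water and 0.00122% to 0.0150% with zinc. Nearly all of this was Cd74, a gene of MHC class II antigen presentation, at 113 to 211 CPM with water and 25.3, 11.6, 142 and 114 CPM with zinc, while no other immune marker exceeded 1.22 CPM in any library. Stromal markers took at most 0.00014%, with Cd3e, Fcer1g, Col1a1, Dcn and Acta2 at 0 in every library. No tested marker of these lists passed the test between the groups. Only 5 of 9 enterocyte, 7 of 10 enteroendocrine, 2 of 7 immune and 0 of 6 stromal markers had enough counts to be tested. In such bulk samples, fewer cells of a type and less RNA per cell cannot be told apart.

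With zinc in the drinking water, 1 transporter of the family was higher, the plasma membrane exporter Slc30a1. The granule transporter Slc30a2 and the vesicular, secretory pathway and mitochondrial members did not pass the test. Of the 10 members, 7 had enough counts to be tested, and 1 of these 7 was called higher and 0 lower (edgeR quasi-likelihood test, Benjamini-Hochberg adjusted p below 0.05 over all genes). Among all 11988 tested genes, 0.025% were called higher and 0.0584% lower. At an unadjusted p below 0.05 the family count was also 1, against 4.65% of all tested genes, and DESeq2 called Slc30a1 higher and no other member (0.0667% of all genes higher, 0.217% lower). The log2 fold changes (zinc over water) of the 7 tested members had a median of 0.15, against 0.01 over all tested genes, and 7 of 7 lay above 0, as 51.9% of all genes did.

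**Figure D1:**
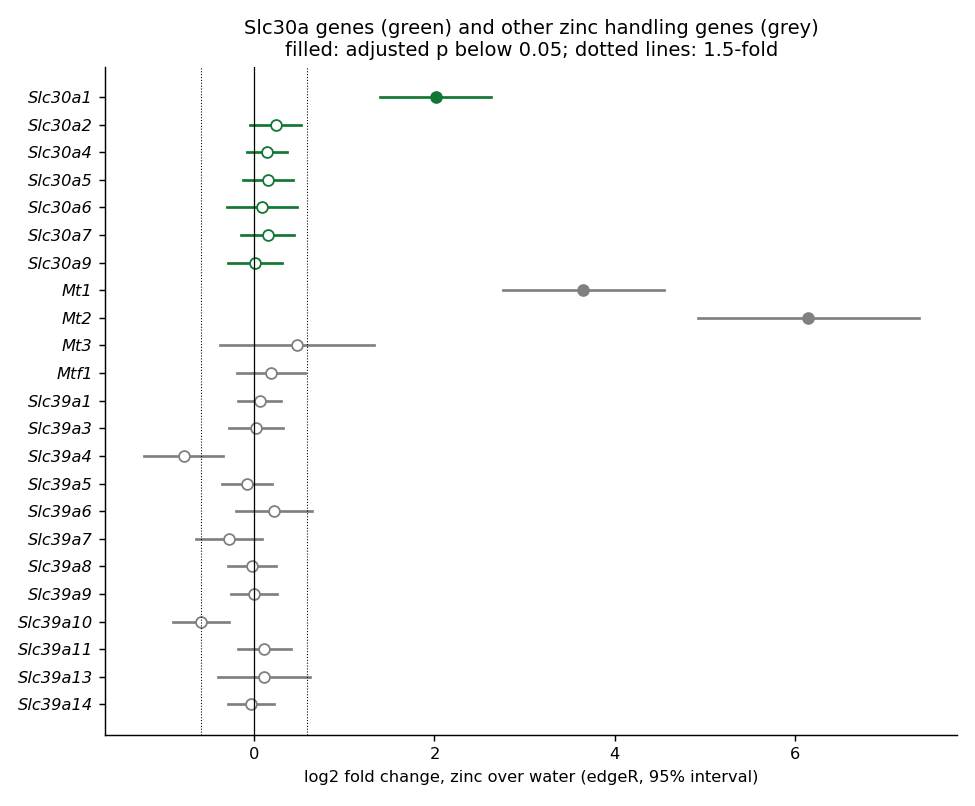
Log2 fold change (zinc over water, horizontal axis) of the 7 tested Slc30a genes in green and the 16 tested other zinc handling genes in grey, with lines for the 95% intervals of the edgeR fit on 4 against 4 libraries. Slc30a1 at 2.01 is the only filled green point, the other 6 Slc30a points lie between 0.01 and 0.24, and Mt1 and Mt2 are the only filled grey points.

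Slc30a1 (ENSMUSG00000037434, GRCm39 chr1:191638808-191645361, plus strand, 2 exons) encodes ZnT1, the transporter that moves zinc from the cytosol out of the cell. Its counts were 16, 55, 78 and 88 in the water libraries 1 to 4 and 132, 203, 258 and 346 in the zinc libraries 1 to 4. On the CPM scale these were 1.00, 2.36, 3.30 and 3.36 with water and 7.84, 9.80, 10.2 and 13.4 with zinc. Every zinc library lay above every water library, a separation in this direction that 1.24% of all tested genes showed. The lowest library of each group was replicate 1, with 16 counts in water (exact Poisson 95% interval 9.15 to 26.0) and 132 in zinc (110 to 157). The highest water library had 88 counts (70.6 to 108). These intervals cover counting error only and did not overlap between the groups. The intervals of water replicate 1 and water replicate 2, which had 55 counts (41.4 to 71.6), did not overlap with each other either.

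The fitted change was 4.04-fold, with a 95% interval of 2.64 to 6.19 and an edgeR adjusted p of 0.0198. The size of the change varied little with the processing, whereas the call was lost in 3 settings. Without water replicate 2 the log2 fold change was 1.97 with an edgeR adjusted p of 0.0862, without zinc replicate 2 it was 2.04 with 0.0652, and with scaling by library totals alone it was 1.99 with 0.0836. Over all 16 alternatives the log2 fold change ran from 1.78 to 2.18 and the adjusted p from 2.5e-14 to 0.0862.

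The start of Slc30a1 carries matches to the core of the metal response element, and the 2 matches are printed because this was the member that rose. The search took the letters TGCACNC or TGCGCNC on either strand of the RefSeq promoter window, which runs from 250 bases before to 50 bases after the annotated start. Capitals mark the match, which here reads on the strand opposite to the gene, with 10 bases on each side. The first begins at base -43 from the RefSeq start and spans chr1:191638840-191638866 on GRCm39, the second begins at base 31 after it and spans chr1:191638913-191638939. Both lie inside the span that GENCODE gives the gene, whose annotated start is further upstream.
Slc30a1, first match: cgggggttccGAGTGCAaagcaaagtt
Slc30a1, second match: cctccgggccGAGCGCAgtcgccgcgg
Of 32851 RefSeq promoter windows, 25.7% held at least 1 such match and 7.11% at least 2. The window of Mt2 held 4 and that of Mt1 held 3. A match is a description of letters and no site of binding was measured.

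Slc30a2 (ENSMUSG00000028836, chr4:134070234-134081795, plus strand, 9 merged exons) encodes ZnT2, the vesicular transporter that fills secretory granules with zinc. It stood at 115, 102, 99.9 and 94.1 CPM in the water libraries and at 129, 153, 99.99 and 102 CPM in the zinc libraries. Zinc replicates 1 and 2 lay above every water library and zinc replicates 3 and 4 within the water range, so the groups overlapped. The means were 103 ± 8.60 and 121 ± 25.1 CPM (SD, n = 4). The fitted change was 1.18-fold, with a 95% interval of 0.967 to 1.44, and it did not pass the edgeR test (adjusted p = 0.998). Extl1 is annotated on the opposite strand and shares 1551 exon bases, 40.2% of the Slc30a2 exon length. Extl1 counts ran from 113 to 293 per library against 1831 to 3168 for Slc30a2, and no source used here states whether the counting used strand.

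Slc30a4 (ENSMUSG00000005802, chr2:122523004-122544845, minus strand, 7 merged exons) encodes ZnT4, a transporter of endosomal and lysosomal vesicles known from zinc secretion into milk. Its levels were 43.7, 42.8, 48.6 and 42.0 CPM with water and 50.5, 44.9, 48.5 and 50.8 CPM with zinc. Zinc replicates 1 and 4 exceeded every water library, and the others fell inside the water range. The fitted change was 1.10-fold (95% interval 0.943 to 1.28, SE 0.11 on the log2 scale) and did not pass the edgeR test (adjusted p = 0.998). Its promoter window held 3 matches to the same core, more than that of Slc30a1, and they are printed for that comparison, again with the match in capitals and read 5′ to 3′ on the strand of the gene. They begin at bases -228, -92 and -6 from the RefSeq start and span chr2:122544795-122544821, chr2:122544659-122544685 and chr2:122544573-122544599.
Slc30a4, first match: cgggggctcaGAGCGCAcaagacctca
Slc30a4, second match: cgcgcctcgcGGGCGCAcgcgccgcct
Slc30a4, last match: cggggcgggcGGGTGCAgtggctgggg
Across the family, 9 members had a RefSeq window and 6 of these held a match. Slc30a10 held 3, of which those at bases -233 and -232 overlap on opposite strands. Slc30a2 held 2 and Slc30a5 held 1. Slc30a3 held 1 in one of its windows and 0 in another. Slc30a6, Slc30a7 and Slc30a9 held none in these windows. Among the 7 tested members, 4 therefore held a match and 1 of these 4 was called higher.

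**Figure D2:**
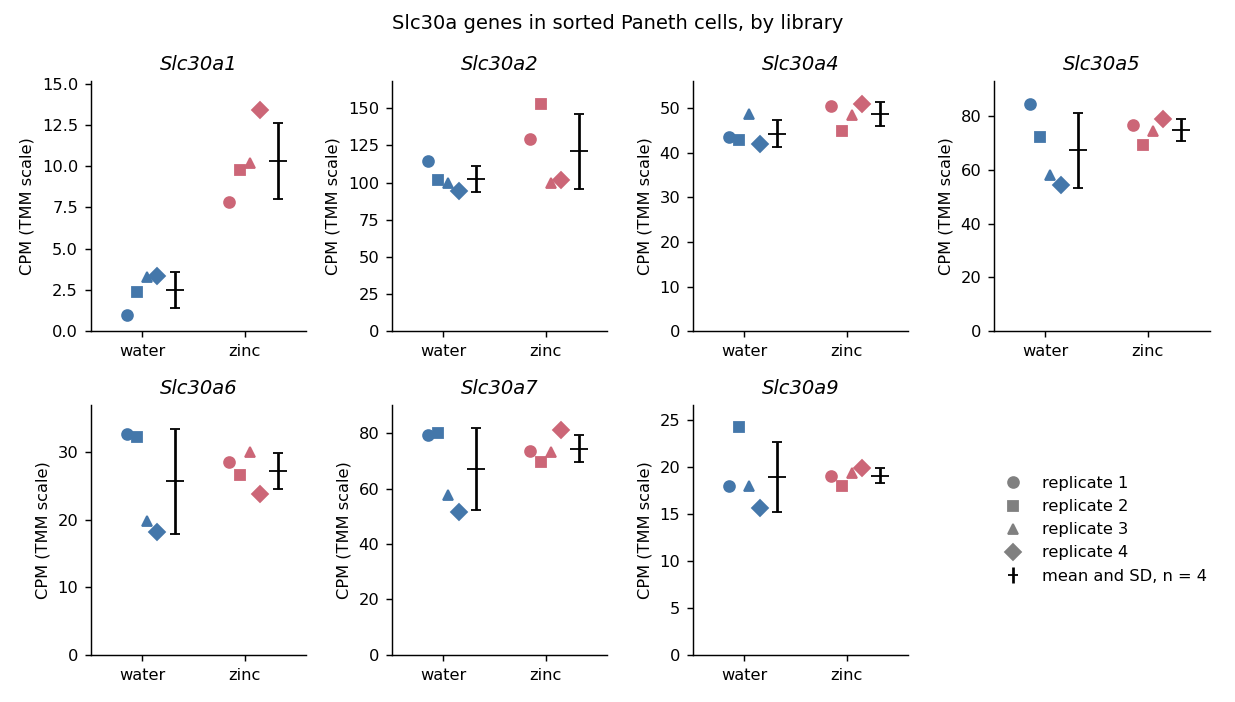
CPM on the TMM scale (vertical axes, each from 0) of the 7 tested Slc30a genes in each library, with water in blue, zinc in red, a marker shape for each replicate number, and bars for the mean and SD (n = 4). The groups separate for Slc30a1, at 1.00 to 3.36 with water and 7.84 to 13.4 with zinc, and overlap in the other 6 panels.

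Slc30a5, Slc30a6 and Slc30a7 supply zinc to enzymes maturing in the secretory pathway, alkaline phosphatases among them. ZnT5 and ZnT6, the products of the first pair, work together as a heterodimer, and ZnT7 works as a homodimer. Slc30a5 (ENSMUSG00000021629, chr13:100936795-100970006, minus strand, 16 merged exons) stood at 84.6, 72.3, 58.1 and 54.3 CPM with water and 76.5, 69.4, 74.5 and 79.1 CPM with zinc. All zinc libraries lay inside the water range.

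Slc30a6 (ENSMUSG00000024069, chr17:74702579-74733299, plus strand, 15 merged exons) was the lowest of the 3 in CPM, at 32.6, 32.3, 19.8 and 18.2 with water and 28.6, 26.7, 30.03 and 23.8 with zinc. Slc30a7 (ENSMUSG00000054414, chr3:115732621-115801060, minus strand, 12 merged exons) stood at 79.5, 80.3, 57.7 and 51.4 CPM with water and 73.7, 69.6, 73.4 and 81.3 CPM with zinc. For Slc30a6 all zinc libraries lay within the water range, and for Slc30a7 only zinc replicate 4 lay above it.

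For all 3 genes, water replicates 1 and 2 lay above water replicates 3 and 4, and the zinc libraries lay closer together. The split depended on the scaling. Scaled by library totals alone, Slc30a7 stood at 60.7, 81.6, 61.5 and 62.4 CPM with water, so that replicate 2 stood apart and replicate 1 did not. The SD of Slc30a7 on the TMM scale was 14.8 CPM with water and 4.89 CPM with zinc, and a difference in spread was not tested. None of the 3 passed the edgeR test, each with an adjusted p of 0.998. Their fitted changes were 1.11-fold for Slc30a5 (95% interval 0.918 to 1.35), 1.06-fold for Slc30a6 (0.814 to 1.39) and 1.11-fold for Slc30a7 (0.905 to 1.36). Part of these genes overlaps genes on the opposite strand. Slc30a6 shares 14.6% of its exon length with Nlrc4, which had 637 to 1112 counts per library against 469 to 760 for Slc30a6, and Slc30a7 shares 15.5% with Dph5, which had 50 to 122.

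Slc30a9 (ENSMUSG00000029221, chr5:67464285-67515805, plus strand, 23 merged exons) encodes ZnT9, the mitochondrial member. It stood at 18.0, 24.2, 18.0 and 15.6 CPM with water and at 19.0, 18.0, 19.3 and 19.9 CPM with zinc. The means were 18.9 ± 3.68 and 19.0 ± 0.812 CPM (SD, n = 4), and the water range enclosed the zinc range. The fitted change was 1.01-fold (95% interval 0.818 to 1.24, edgeR adjusted p = 0.998).

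For the 6 members that did not pass the test, the 95% intervals all lay within 1.5-fold in both directions, as did those of 60% of all tested genes. With TMM scaling and all 8 libraries, changes larger than 1.5-fold were thus outside the interval of each of these 6. Changes of the size fitted here, 0.01 to 0.24 on the log2 scale, could not be separated from the spread between libraries. The intervals of the other settings were not set against 1.5-fold, and they can be wider. For Slc30a2, the unadjusted edgeR p was 0.0968 at a log2 fold change of 0.24. It was 0.276 at 0.23 with scaling by library totals alone.

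The remaining 3 members were too low to be tested. Slc30a3 (ENSMUSG00000029151, chr5:31241914-31265581, minus strand), the transporter of synaptic vesicles, had 0 counts in each water library and 0, 5, 5 and 8 counts in the zinc libraries 1 to 4. The summed level with zinc was 6.03-fold a floor of 3 counts over the water group. This value leaves out the counting error of the zinc counts and is no lower bound. The groups shared the value 0, and an exact two-sided permutation test gave p = 0.143, where the smallest p that 70 assignments of 4 against 4 allow is 0.0286. Slc30a10 (ENSMUSG00000026614, chr1:185186973-185200959, plus strand) had 3 counts in zinc replicate 3 and 0 elsewhere, and Slc30a8 (ENSMUSG00000022315, chr15:52158949-52199194, plus strand), the transporter of insulin granules, had 0 in all 8 libraries. A count of 0 allows a level of up to 0.115 to 0.188 CPM per library, a limit that covers counting error only.

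A gene of another epithelial cell type moved with the same libraries, and it is named here after its values were seen. Sis, the brush border sucrase-isomaltase of enterocytes, stood at 1.63 to 2.86 CPM in the water libraries, 2.38 CPM in zinc replicate 1, and 22.8, 13.0 and 7.80 CPM in zinc replicates 2, 3 and 4, the libraries that held the Slc30a3 counts. The 9 enterocyte markers summed to 0.00591% to 0.0147% of counts with water and 0.00771% to 0.0161% with zinc, 0 of the 5 tested among them passed the test, and Lct, Alpi and Fabp1 had at most 3, 15 and 18 counts in any library. In zinc replicate 1, where Sis was within its water range, Slc30a1 was 7.84 CPM, above each water library and below each other zinc library. The part of such cells in the Slc30a1 and Slc30a3 values was not tested.

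Levels of different members were compared per kilobase (kb) of merged exon length. With water, Slc30a2 was the highest at 26.5 ± 2.23 CPM per kb, followed by Slc30a4 at 7.51 ± 0.507 and Slc30a5 at 5.97 ± 1.23 CPM per kb (SD, n = 4). Slc30a7 at 4.49 ± 0.991 and Slc30a6 at 4.32 ± 1.31 came next, then Slc30a9 at 1.21 ± 0.235 and Slc30a1 at 0.442 ± 0.195 CPM per kb. The granule transporter thus stood clear of the rest, whereas the library ranges of Slc30a4 and Slc30a5, of Slc30a5 and Slc30a7, and of Slc30a7 and Slc30a6 overlapped. Over the 11988 tested genes, Slc30a2 ranked 416 by level per kb and Slc30a1 ranked 7770.

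With zinc the order was the same except at its foot, where Slc30a1 at 1.82 ± 0.408 CPM per kb stood above Slc30a9 at 1.21 ± 0.0518 CPM per kb, with no overlap of their ranges. Slc30a2 was 31.3 ± 6.50 CPM per kb. The order of neighbours depended on the length used. With the longest annotated transcript in place of merged exons, Slc30a5 (12.0 CPM per kb with water) stood above Slc30a4 (7.52), and with zinc Slc30a9 (3.28) stayed above Slc30a1 (1.95). Slc30a2 was the highest under both lengths.

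Expressed as a share of the summed CPM per kb of the family, Slc30a2 made up 52.7% ± 2.14 with water and 52.8% ± 6.04 with zinc (SD, n = 4). The wider spread with zinc came from 54.7% and 60.5% in replicates 1 and 2 against 48.2% and 47.8% in replicates 3 and 4. Slc30a1 made up 0.312%, 0.791%, 1.21% and 1.34% in the water libraries and 2.27%, 2.65%, 3.35% and 4.30% in the zinc libraries. The exporter at the cell surface was therefore a small part of the family's transcripts in both groups, and its share did not overlap between them. Slc30a4 held 15.0% and 14.2%, Slc30a5 11.7% and 11.4%, Slc30a7 8.82% and 8.53%, Slc30a6 8.44% and 7.84%, and Slc30a9 2.39% and 2.08% with water and zinc respectively. The summed level was 50.5 ± 5.35 CPM per kb with water and 58.9 ± 5.41 CPM per kb with zinc, of which Slc30a2 carried the most.

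**Figure D3:**
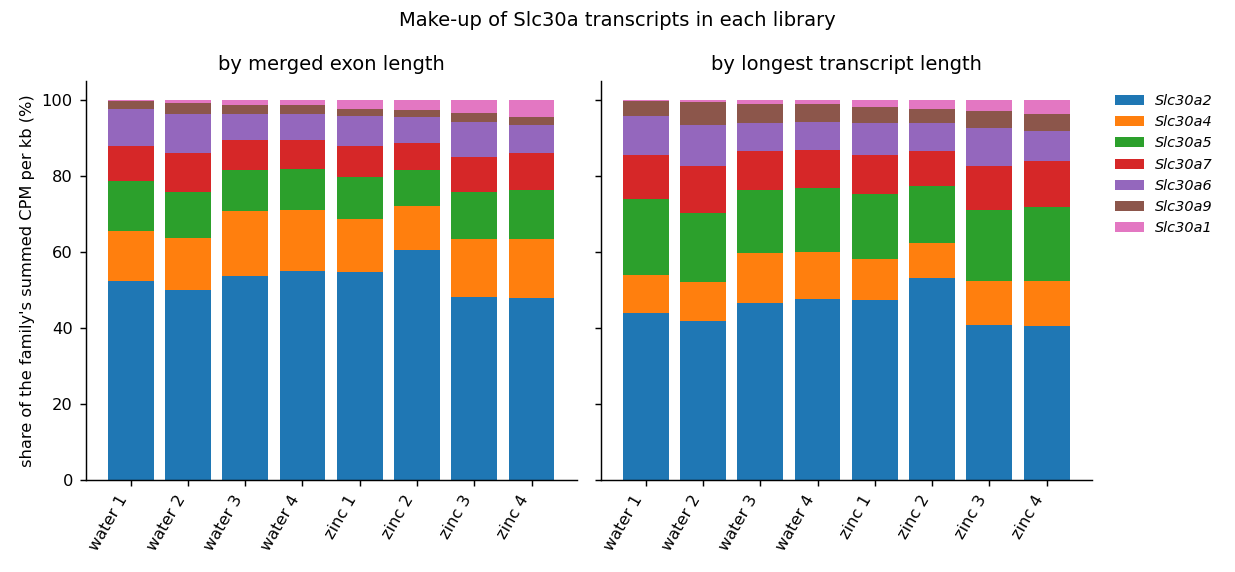
Share of the family's summed CPM per kb (percent, vertical axis) held by each of the 7 tested members in each library, with merged exon length on the left and longest transcript length on the right. Slc30a2 in blue holds 47.8% to 60.5% of every library by merged exons, and Slc30a1 in pink at the top holds 0.312% to 1.34% with water and 2.27% to 4.30% with zinc.

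Ratios of a pair of members within a library do not depend on how libraries are scaled to each other. The log2 ratio of Slc30a1, the cell surface exporter, to Slc30a2, the granule transporter, per exon length was -7.39, -5.98, -5.47 and -5.36 in the water libraries and -4.59, -4.52, -3.85 and -3.48 in the zinc libraries. The highest water library stood below the lowest zinc library. The means were -6.05 ± 0.93 and -4.11 ± 0.54 (SD, n = 4) and differed by 1.94, with an exact two-sided permutation p of 0.0286, the smallest this design allows, or 0.0571 after Benjamini-Hochberg adjustment over the 2 ratios tested. Since Slc30a1 was known to be higher, this ratio restates its change on a scale free of library factors.

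For the heterodimer partners Slc30a5 and Slc30a6 the log2 ratio was 0.45, 0.24, 0.63 and 0.65 with water and 0.50, 0.46, 0.39 and 0.81 with zinc. The ranges overlapped and the mean moved by 0.04 (exact two-sided permutation p = 0.771, adjusted p = 0.771). Their single levels varied between the water libraries from 54.3 to 84.6 CPM and from 18.2 to 32.6 CPM, while Slc30a5 stayed above Slc30a6 per exon length in all 8 libraries.

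**Figure D4:**
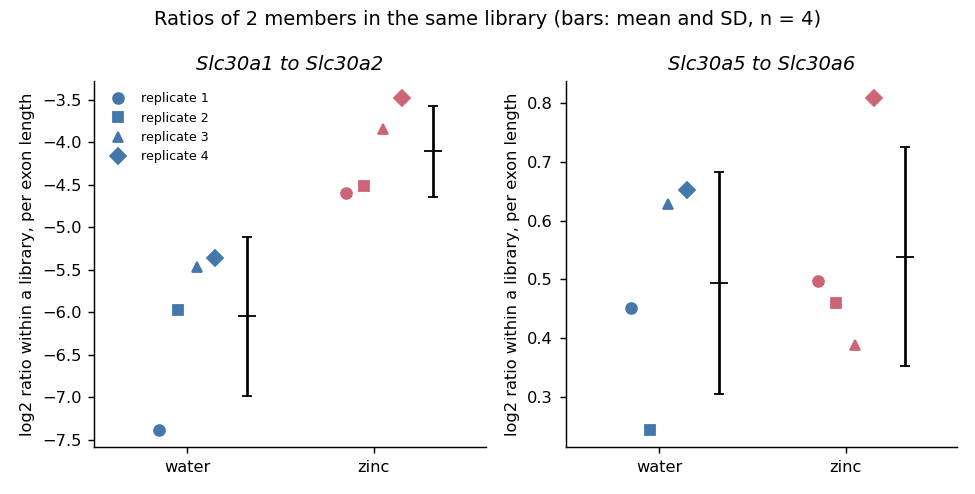
Log2 ratio per exon length within each library (vertical axis) for Slc30a1 to Slc30a2 on the left and Slc30a5 to Slc30a6 on the right, water in blue and zinc in red, with bars for the mean and SD (n = 4). The left panel separates the groups, at -7.39 to -5.36 with water and -4.59 to -3.48 with zinc, and the right panel does not.

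Across the 8 libraries, the members of the early secretory pathway rose and fell together most closely, at different levels. Pearson's r of log2 CPM was 0.95 for Slc30a5 and Slc30a7, 0.86 for Slc30a6 and Slc30a7 and 0.84 for Slc30a5 and Slc30a6. These values are descriptions over libraries that share scaling factors and hold both treatments. Among 11092 genes with a mean of at least 1 CPM, the 5 closest to Slc30a1 over the 8 libraries were Snrnp40 (r = 0.94), Akr1c19 (0.93), Bsn (0.93), Trim35 (0.92) and Sgpp2 (0.92). None of these 5 passed the edgeR test between the groups, with adjusted p from 0.451 to 0.998. The closest to Slc30a2 were Rassf2 (r = 0.93), Clu (0.92), Acad9 (0.90), Slc25a23 (0.90) and Epn1 (0.89), each with an adjusted p of 0.998.

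The other zinc handling genes were taken as a list of 20, of which 16 were tested. Of these, 2 were called higher and 0 lower, with a median log2 fold change of 0.04. The 2 were the metallothioneins Mt1 and Mt2, with log2 fold changes of 3.65 (edgeR adjusted p = 0.0259) and 6.15 (adjusted p = 0.0198). For both, every zinc library lay above every water library, as for 1.24% of all tested genes. Mt1 stood at 189 to 425 CPM with zinc against 13.7 to 29.1 with water. Mt2 stood at 205 to 455 CPM against 2.15 to 7.32. The calls still changed with 1 library left out. Both were called without zinc replicate 2 or 3. Without water replicate 3, zinc replicate 1 or zinc replicate 4, 1 of them was called. Without water replicate 1, 2 or 4, 0 were called. With the replicate number added to the fit, 0 genes of the list were called higher and 2 lower. With Slc30a1, at 2.01, Mt1 and Mt2 were the 3 genes called higher in the whole table. Mt4, one of the 4 list members too low to be tested, had 0 counts in each water library and 3, 5, 2 and 5 in the zinc libraries. Its summed level with zinc was 5.03-fold a floor of 3 counts over the water group, again without the counting error of the zinc counts. An exact two-sided permutation test gave p = 0.0286, the smallest possible. It was not adjusted for the other low genes put through the same test, which all had a larger p. Among these were Slc30a3 (exact permutation p = 0.143) and Slc39a2 (0.543). The zinc sensor Mtf1 did not pass the test, at 8.07, 11.2, 9.86 and 6.57 CPM with water and 8.67, 10.9, 10.2 and 10.7 CPM with zinc. Of the 14 Slc39a importers, which work against the Slc30a transporters, 12 were tested, 5 had a log2 fold change above 0 and 7 below, and 0 passed the edgeR test, while 2 had an unadjusted p below 0.05 and DESeq2 called 1 lower. These 2 were Slc39a4, with a log2 fold change of -0.78 (edgeR adjusted p = 0.513), and Slc39a10, with -0.59 (adjusted p = 0.388).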

How the data were processed

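RNA of sorted Paneth cells was sequenced in 8 libraries (4 water, 4 zinc). The deposited table holds raw counts per Ensembl gene identifier. The submitters' processing notes name mm39, FastQC 0.12.0, STAR 2.7.0a and DESeq2. How the authors counted reads (program, strand, multi-mapping reads) is not given in the sources used. Of 55414 identifiers, 54749 matched GENCODE M39, from which symbols, GRCm39 coordinates and exon lengths were taken. Genes were kept by filterByExpr (minimum count 10), scaled by TMM and tested for treatment with the robust quasi-likelihood test of edgeR 4.0.16 in R 4.3.3, with adjustment over 11988 genes. SE is the absolute log2 fold change divided by the square root of F. Levels per kb divide CPM by merged exon length. Promoter windows came from a RefSeq table and were located on GRCm39 by exact match. Ratios were compared by exact permutation over libraries. The edgeR fit and the permutation test were checked on simulated data, which held no factor shared by replicate number.

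The totals of 20760764 to 24117111 counts put the floor of 3 counts at 0.115 to 0.188 CPM. No pair of libraries within a group agreed within counting noise. The members, lists and tests were chosen with earlier results of these data known. Named were all 10 members, the other zinc handling genes past the threshold with Mt1 and Mt2, and the 5 genes closest to Slc30a1 and to the most abundant member by Pearson's r. Mt4 and Mtf1 were named outside this rule, and Slc39a4 and Slc39a10 were named after their values were seen. Alternatives were DESeq2 1.42.0, limma-voom (limma 3.58.1), DESeq2-type (RLE) size factors, library totals, no filter, a mean count of at least 50, no Defa genes, a replicate block, and each library left out in turn. The transcript length and the scaling used for single libraries far from their group were added after seeing the data. One item of the marker lists is not reported here.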

Additional observations from a re-analysis of the deposited data

Results flagged for a closer look

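Among 22 sets of 4 libraries (7 Slc30a genes, Mt1, Mt2 and 2 ratios, in each group), 2 held a library far from the other 3 by Dixon's 95% criterion, where chance gives about 1 in 20. Both were zinc replicate 2. It held 425 CPM of Mt1, where the other zinc mice ranged from 189 to 223, and 455 CPM of Mt2, where they ranged from 205 to 240. In the same library Slc30a1, at 9.80 CPM, lay between the other zinc libraries, and Slc30a2, at 153 CPM, was the highest of all 8. With scaling by library totals alone neither metallothionein passed the criterion, and 1 set did, Slc30a7 with water, where replicate 2 at 81.6 CPM stood above 60.7 to 62.4 CPM.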

How the results depend on the processing

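The count of Slc30a members called higher was 1 in 13 of 16 alternatives and 0 in the other 3, which were scaling by library totals alone (Slc30a1 log2 fold change 1.99) and leaving out water replicate 2 or zinc replicate 2. It ran from 0 to 1 with single libraries left out, where the Slc30a1 log2 fold change ran from 1.78 to 2.18. Members called lower were 0 in all 16. Other zinc handling genes called higher were 0 to 2 with a library left out, and those called lower 0 to 1. Called lower were also 1 with DESeq2 (Slc39a4) and 2 with no low-count filter, and the whole table then gave 34 and 66 calls in place of 10. The fitted changes near 0 changed sign, Slc30a6 between -0.052 and 0.22 and Slc30a9 between -0.079 and 0.14 with a library left out, and Slc30a9 stood at -4.6e-05 with a mean count of at least 50. The log2 ratio of Slc30a5 to Slc30a6 moved between -0.046 and 0.098, and that of Slc30a1 to Slc30a2 between 1.496 and 2.17. The cause of these shifts was not tested.

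The labels number the replicates 1 to 4 in both groups. Deviations from the group means correlated at 0.23, 5.5e-05, 0.13 and 0.26 for the same numbers. Replicates 1, 3 and 4 each correlated best with the same number in the other group. Water replicate 2 was near 0 with every zinc library, so its value cannot decide whether the replicates numbered 2 were paired. The TMM factors rose in the order of the replicate numbers in both groups, replicate 2 included. With a replicate block, 32 genes were called in place of 10, Slc30a1 had a log2 fold change of 2.08 (edgeR adjusted p = 0.000137) and again 1 Slc30a member was called. Other zinc handling genes called higher were then 0, with Mt1 and Mt2 no longer called, and lower 2 (Slc39a4 and Slc39a10), and the ratio of Slc30a1 to Slc30a2 differed by 1.94 with an exact sign-flip p of 0.125, the smallest that 4 pairs allow. Slc30a3, Slc30a8 and Slc30a10 did not pass the low-count filter, and with no filter 9 members entered the edgeR test and again 1 was called. Low counts limited Slc30a1 in water replicate 1.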
